A study of Mus musculus with 2 samples.

Results

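The endothelial cells of dorsal mouse skin, which line its blood and lymphatic vessels, were selected from 2 single-cell libraries, and 55 of 17492 cells that passed the quality limits were members. They were chosen on measured values. A member had at least 4 UMIs (unique molecular identifiers, counts of captured RNA molecules) of Pecam1, Cdh5, Ptprb, Flt1 and Egfl7 together, and these 5 genes made up at least 0.1% of its UMIs. Collagen RNA (Col1a1, Col1a2, Col3a1 and Dcn) had to stay under 2% and complement RNA (C1qa, C1qb and C1qc) under 0.1%. The wildtype library came from a 6 mm punch of a C57BL/6J mouse, and the other from a punch of an Eppk1-/- mouse that had been backcrossed into C57BL/6J. Eppk1 encodes epiplakin, a linker protein of the epithelial cytoskeleton. Both skins were taken apart with enzymes at 37 °C, fixed and hybridized with probe pairs for the mouse transcriptome. With 1 mouse and 1 library per genotype no difference between genotypes could be tested, and genotype cannot be told apart from any other difference between the 2 mice or their dissociations. Sex and age of the mice are not given in the sources used here. The wildtype library held 8875 cells and 60671929 UMIs within the limits, and the Eppk1-/- library 8617 cells and 52743301 UMIs. All intervals below are exact 95% intervals that cover counting error only.

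Endothelial cells form the inner wall of every vessel. They hold to each other through VE-cadherin (Cdh5) and claudin 5 (Cldn5), rest on a basement membrane of type IV collagen, laminin and perlecan, and take signals from blood flow and from VEGF through Flt1, Kdr and Flt4. Blood capillaries of the skin exchange nutrients and fatty acids, postcapillary venules admit leukocytes, and lymphatic vessels, set apart by the transcription factor Prox1, drain fluid and guide dendritic cells by the chemokine Ccl21a.

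The wildtype library contributed 35 members, 0.394% of its cells (0.275 to 0.548%, Clopper-Pearson), with 194106 UMIs and a median of 4128 UMIs per member. The Eppk1-/- library contributed 20 members, 0.232% (0.142 to 0.358%), with 157405 UMIs and a median of 4635.5. The intervals of the shares overlap. With the stricter limit of 8 UMIs and 0.2% of the selecting genes 21 and 19 members were left, 0.237% and 0.220% of the cells. Recovery of vessels during dissociation was not measured. Of the 5 selecting genes, a member held a median of 16 UMIs in wildtype and 30 UMIs in Eppk1-/- skin. The lowest member stood at 0.109% of UMIs in wildtype and 0.110% in Eppk1-/- skin, and the nearest cells with 4 UMIs or more below the limit stood at 0.0792% and 0.0871%. Below the limit on the share lay 23 wildtype and 9 Eppk1-/- cells with at least 4 UMIs, and 7 and 5 cells reached the share with exactly 3 UMIs. The collagen limit removed no candidate, and the complement limit removed 2 wildtype candidates.

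The name endothelial was checked against 9 endothelial genes that the selection did not use, namely Esam, Cldn5, Emcn, Plvap, Kdr, Tie1, Tek, Sox18 and Robo4. At least 3 of the 9 were found in 48 of 55 members, in 30 of 35 wildtype and in 18 of 20 Eppk1-/- members. None of them was found in 4 members, which lay between 0.110% and 0.164% for the selecting genes. By these 9 genes the name held for most members but not for each of them. The 4 markers Pecam1, Cdh5, Ptprb and Flt1 are selecting genes, so their presence is in part fixed by the choice of cells and was no check. At least 2 of these 4 were present in 50 members and all 4 in 30.

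**Figure D1:**
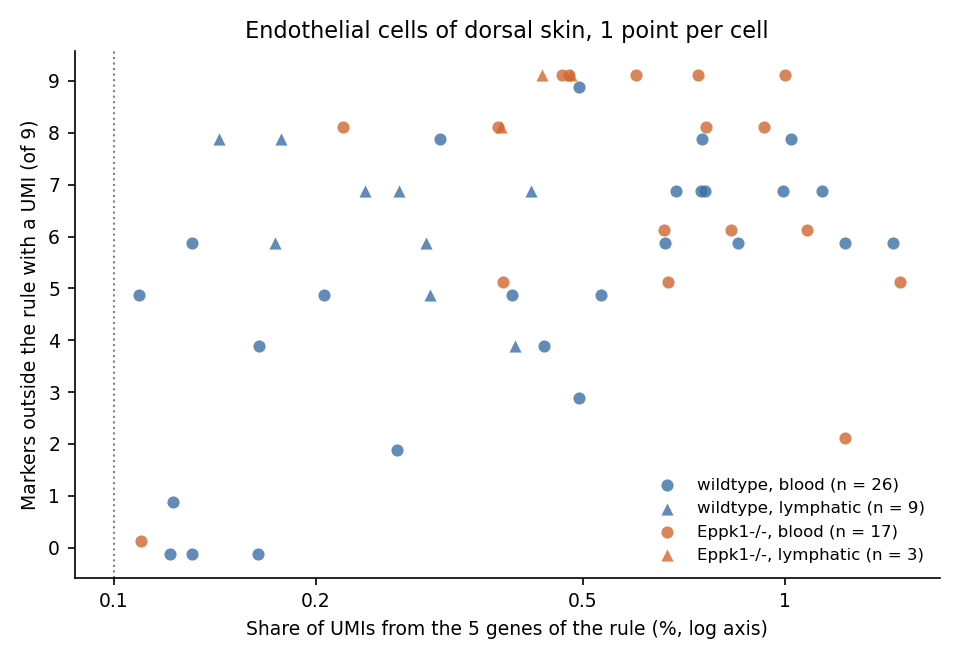
Each point is a cell, with the share of its UMIs from the 5 selecting genes on a log axis (percent) and the number of the 9 other endothelial markers that had a UMI. Circles are blood and triangles lymphatic endothelial cells, the dotted line is the limit of 0.1%, and the 4 cells with 0 of 9 markers lie near that limit.

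Among 1554 genes with at least 50 UMIs in the members, 177 (11.4%) were higher than in all other cells by at least 2 on the log2 scale in both libraries. Levels are given as CPM, the UMIs of a gene summed over the cells and divided by the sum over all non-mitochondrial genes, per 1000000. The 20 genes of highest ratio included the receptors Tie1, Robo4, Adgrl4 and Flt4, the transcription factor Sox17, the surface glycoproteins Emcn and Podxl, the claudin Cldn5, and Gpihbp1, which anchors lipoprotein lipase on capillaries. Cldn5 stood at 1244 CPM in wildtype members against 0.614 CPM in other wildtype cells, and at 1328 against 0.363 CPM in the Eppk1-/- library. Emcn stood at 366 against 0.149 CPM, and at 526 against 0.134 CPM. These ratios describe the cells that were selected and are not a finding about them.

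The promoters of a pair of these genes are shown because ETS factors, of which Erg and Fli1 are endothelial members, bind a core of GGAA, here searched as CAGGAAG on both strands (CTTCCTG when it lies on the other strand). Sequences are from RefSeq on GRCm38.p6, 250 bases up to the transcription start, written 5′ to 3′ on the strand of the gene, with the match in capitals. The Emcn window lies on the forward strand at chr3:137340828-137341077, and the Robo4 window on the forward strand at chr9:37401722-37401971.
Emcn: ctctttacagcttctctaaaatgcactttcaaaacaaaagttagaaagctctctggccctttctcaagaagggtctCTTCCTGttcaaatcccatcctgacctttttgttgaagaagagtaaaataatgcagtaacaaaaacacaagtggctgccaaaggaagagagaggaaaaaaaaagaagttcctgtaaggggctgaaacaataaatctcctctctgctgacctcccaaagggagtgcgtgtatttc
Robo4: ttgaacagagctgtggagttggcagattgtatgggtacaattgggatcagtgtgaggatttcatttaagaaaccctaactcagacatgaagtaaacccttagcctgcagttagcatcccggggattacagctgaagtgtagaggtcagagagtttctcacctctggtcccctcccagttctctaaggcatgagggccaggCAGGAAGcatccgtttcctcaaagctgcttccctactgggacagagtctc
Of the 20 genes, 16 had such a window, with 18 windows among them, and 6 of the 16 held the letters in at least 1 window. Of all 32851 windows searched 10.8% held them, which is a share of windows and not of genes. A match is a description of the letters only.

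RNA of other cell types was measurable in the members and differed between the libraries. The summed level of 15 keratinocyte genes was 10934 CPM in wildtype and 5094 CPM in Eppk1-/- members, with Krt17 and Dsp the genes of most UMIs. The summed level of 12 fibroblast genes was 3125 CPM in wildtype and 9720 CPM in Eppk1-/- members, with Gsn the gene of most UMIs in both. All 15 and all 12 genes were detected. Of 13 pericyte and muscle genes, 11 were detected, at 810 and 398 CPM in sum, with Rgs5 leading and Acta2 and Cnn1 at 0. All 8 adipocyte genes were detected, at 1265 and 404 CPM, with Car3 leading. Leukocyte genes summed to 449 and 597 CPM, with Cd3d at 0. Schwann cell and melanocyte genes summed to 105 and 32.1 CPM. Platelet and erythroid genes summed to 340 CPM in wildtype members, all from haemoglobin genes and Alas2, and were at 0 in Eppk1-/- members. Over 0.5% of UMIs from keratins were found in 9 of 55 members. Droplet barcodes were shared between the libraries by 1211 of the deposited cells of each, and 7 members had such a barcode. The part of these RNAs in the ratios below was not tested, except where values without the cells that carry them are given.

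The targeted gene was lower in the Eppk1-/- members. Eppk1 gave 104 UMIs in 12 of 35 wildtype members and 25 UMIs in 4 of 20 Eppk1-/- members, or 544 against 160.4 CPM, a log2 ratio (Eppk1-/- over wildtype, 0.5 UMI added to each sum) of -1.74 (-2.45 to -1.12). The wildtype members ranged from 0 to 27 UMIs with a median of 0, and the Eppk1-/- members from 0 to 19 with a median of 0, so that the cells of both libraries overlapped. A single Eppk1-/- member held 76.0% of the UMIs there, and keratins made up 0.587% of its own UMIs. The wildtype members with the most Eppk1 held 27, 23, 18 and 13 UMIs. Like that Eppk1-/- member, they fell in the group led by epithelial genes in the clustering below. The cell with 23 UMIs had 0 of the 9 endothelial markers. How much of the wildtype Eppk1 came from endothelial cells was not tested. Without the members with keratin or muscle RNA the log2 ratio was -3.34. Over all kept cells Eppk1 stood at 1889 and 390.3 CPM, a log2 ratio of -2.27 (-2.30 to -2.25). Endothelial members thus held less of it than the other cells in both libraries, by -1.79 and -1.26 on the log2 scale. After each cell was thinned to 2000 UMIs, Eppk1 was found in 9 of 29 wildtype members (31.0%, 15.3 to 50.8%) and in 193 of 1454 wildtype fibroblasts (13.3%), a cell type in which epiplakin is not an established marker and which gives the background here. The Eppk1-/- shares were 2 of 16 (12.5%, 1.55 to 38.3%) and 80 of 2453 (3.26%). Before thinning the medians were 4128 and 4635.5 UMIs in members and 6449 and 6235 UMIs in fibroblasts. Where the probes lie relative to the engineered change is not given in the sources used here.

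Of the other plakins, which link intermediate filaments and other fibres to junctions, 5 were measured without Eppk1, of which 0 were higher and 2 lower, with a median log2 ratio of -0.34. Here and below higher and lower mean a log2 ratio of at least 0.5 in size, which 19.8% of all 1554 genes reached upward and 17.5% downward. Plectin (Plec), which is made in endothelium, stood at 836 and 661 CPM, a log2 ratio of -0.34 (-0.71 to 0.03), and Macf1 at -0.23 (-0.82 to 0.34), which ran from -1.24 to 0.11 over 15 alternative settings. Dystonin (Dst) stood at 653 and 327 CPM, a log2 ratio of -0.99 (-1.497 to -0.52), in 24 and 13 cells. It stayed below 0 under each of 15 alternative settings, from -1.505 to -0.20, and reached the size in 14 of them. The epidermal plakin Ppl stood at -0.81 (-1.46 to -0.22). It ran from -1.85 to -0.12 over the settings and reached the size in 13 of 15. Dsp stood at -0.28 (-0.60 to 0.03), with 52.4% of its wildtype and 62.0% of its Eppk1-/- UMIs in 1 cell, and had no stable direction, since it ran from -1.85 to 1.03 over the settings and was above 0 in 5 of 15. Evpl was found in 3 and 2 members only. Filamin A (Flna), an actin linker, was lower at 408 against 192 CPM, a log2 ratio of -1.07 (-1.74 to -0.46).

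Lymphatic endothelial cells were called where at least 2 UMIs of Prox1, Flt4 and Mmrn1 came from at least 2 of these genes, and all other members were counted as blood endothelial. That group therefore also holds 1 wildtype cell with 10 UMIs of Prox1 and none of Flt4, Mmrn1, Fabp4 or Flt1, and the 4 members in which none of the 9 endothelial markers was found. Lymphatic were 9 of 35 wildtype members (25.7%, 12.5 to 43.3%) and 3 of 20 Eppk1-/- members (15%, 3.21 to 37.9%), and the intervals overlap. Genes outside that rule separated the same cells. Ccl21a gave 1915 of 1917 wildtype UMIs and all 968 Eppk1-/- UMIs in the lymphatic cells. Reelin (Reln) gave 91 of 92 and 54 of 54, and ceruloplasmin (Cp) 78 of 79 and 62 of 63. Fabp4, the fatty acid carrier of capillaries, was the reverse, with 1621 of 1622 wildtype UMIs in blood cells. The 3 Eppk1-/- lymphatic cells were unlike each other. They held 30401, 26447 and 2304 UMIs, with 115, 36 and 1 UMIs of Prox1 and 612, 356 and 0 UMIs of Ccl21a. The second of them also held 253 UMIs of Fabp4 and 93 of Cd36, where no wildtype lymphatic cell held more than 1 of either gene. Lyve1, the hyaluronan receptor, was found in 7 of 9 wildtype lymphatic cells with up to 21 UMIs and in 1 of 3 Eppk1-/- lymphatic cells with 20.

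Multimerin 1 (Mmrn1), a secreted glycoprotein of lymphatic endothelium and platelets, gave 0 UMIs in the Eppk1-/- library. Over all deposited cells the wildtype library gave 381 UMIs in 28 cells and the Eppk1-/- library 0 in 8811 cells. Within the cell limits it stood at 6.30 CPM in wildtype skin, and with the 0.0571 CPM that a count of 0 allows (3 counts over the library) it was at least 110.5-fold lower in Eppk1-/- skin. Mmrn1 is part of the lymphatic rule, so that its presence in the wildtype lymphatic cells is in part fixed by the choice of cells, and Eppk1-/- cells could meet the rule only with both Prox1 and Flt4. The 9 wildtype lymphatic cells held between 13 and 113 UMIs, with a median of 30 and a sum of 334. The 3 Eppk1-/- lymphatic cells held 0, 0 and 0. With 1 UMI of Prox1 as the rule the shares were 28.6% and 15%, and the wildtype cell that this adds held 0 UMIs of Mmrn1, as the Eppk1-/- cells did.

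**Figure D2:**
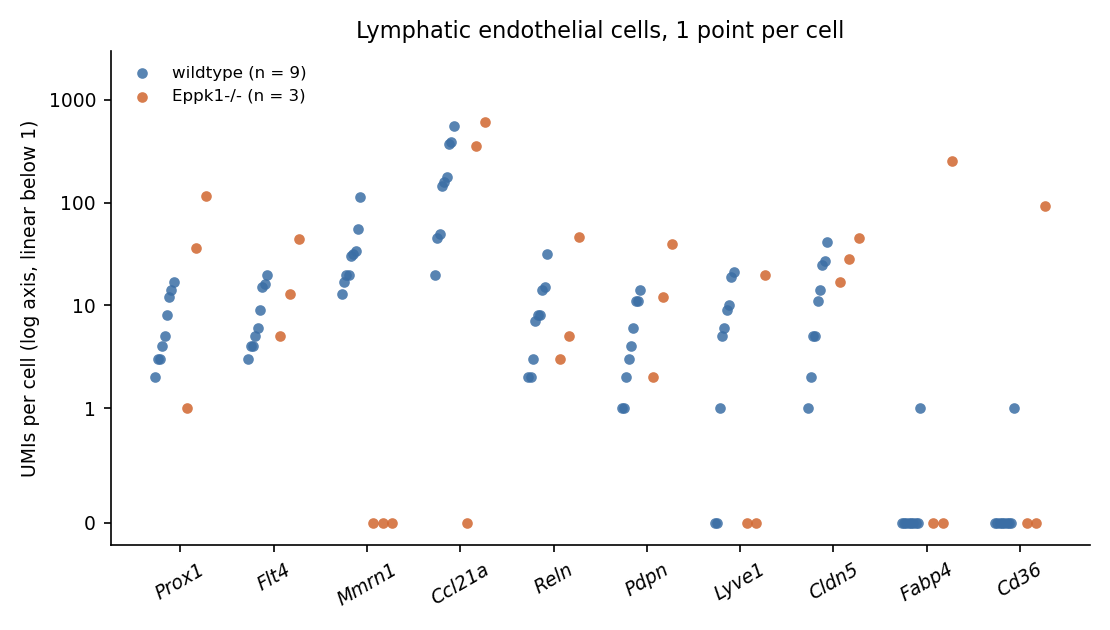
UMIs per cell of 10 genes in the 9 wildtype and 3 Eppk1-/- lymphatic endothelial cells, 1 point per cell, on a log axis that is linear below 1. Mmrn1 lies between 13 and 113 UMIs in the wildtype cells and at 0 in the 3 Eppk1-/- cells, and 1 Eppk1-/- cell held 253 UMIs of the capillary gene Fabp4.

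Mmrn1 lies at chr6:60924976-60989378 (GRCm38, forward strand). Genes farther out on both sides were present in both libraries. Over all deposited cells Gprin3, at chr6:59347226-59426294, gave 357 and 196 UMIs, and Ccser1, at chr6:61180324-62382865, gave 146 and 124. Nnt on chromosome 13, a mitochondrial transhydrogenase, gave 607 and 1734 UMIs in the kept cells, a log2 ratio of 1.71 (1.58 to 1.85). As background, C57BL/6J is known to carry a deletion in Nnt. The genotype of either mouse at these loci was not tested, and the background in which the Eppk1-/- line was made, before the backcross into C57BL/6J, is not given in the sources used here.

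Blood endothelial cells, 26 wildtype and 17 Eppk1-/- members, were mostly cells with capillary genes. Fabp4 was found in 22 of 26 and 16 of 17 of them and the fatty acid transporter Cd36 in 22 and 16, and the capillary receptor Cd300lg in 19 and 16. Fabp4 ranged from 0 to 182 UMIs in the wildtype cells with a median of 44, and from 0 to 353 with a median of 35 in the Eppk1-/- cells, so that the ranges overlapped. After thinning it was found in 17 of 29 wildtype members against 37 of 1454 fibroblasts, and in 13 of 16 Eppk1-/- members against 12 of 2453. The venular genes Selp, Sele and Ackr1 were concentrated in 1 blood cell of each library. The selectins Selp and Sele, which slow leukocytes in venules, gave 189 and 111 UMIs in a single wildtype cell. In the Eppk1-/- library 1 cell held 102 of 110 Selp UMIs and 63 of 70 Sele UMIs. The same cells held 38 and 28 UMIs of Ackr1, the chemokine receptor of venules, and 0 of Gpihbp1. Ackr1 had 1 UMI in each of 2 more blood cells per library. Of the other venous genes Il6st was found in 24 and 16 blood cells, and Lrg1 in 8 and 7, with 74.7% of its wildtype blood UMIs in 1 cell. Of 15 arterial genes 14 were detected, at 2592 and 2919 CPM in sum. The chemokine Cxcl12 led them, with 190 and 183 UMIs in 23 and 14 members, and the ephrin Efnb2 gave 57 and 48. The arterial connexins were few, with Gja5 at 2 and 0 UMIs and Gja4 at 8 and 5. A clustering of the 55 members gave 2 groups, of 12 and 43 cells. The smaller was led by the epithelial genes Plet1 and Epgn, not by vessel genes, and was left unnamed. It held 9 wildtype and 3 Eppk1-/- members. Their median was 8143.5 non-mitochondrial UMIs, against 3809 in the larger group, so the smaller group weighs more in the wildtype sums. Its part in the ratios between genotypes was not tested.

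For the comparison of genotypes, 307 of 1554 genes (19.8%) were higher in Eppk1-/- members by at least 0.5 on the log2 scale, and 272 (17.5%) were lower. The interval left out 0 for 227 and 183 of them. Among those whose interval left out 0, 176 and 117 genes also had no single cell of either library with 50% of that library's UMIs. These counts also leave out genes that were found in few members of both libraries together. In blood endothelial cells alone 177 of 896 genes (19.8%) were higher and 182 (20.3%) lower. The median over all genes was 0.04. These shares are the background for each group of genes that follows. In bulk sums of so few cells, fewer cells with a gene and less RNA per cell cannot be told apart.

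Genes of the vascular basement membrane were higher in Eppk1-/- members. Of 13 measured members 8 were higher, 1 was lower, and the median log2 ratio was 0.79, or 0.81 in blood endothelial cells, where 7 of 10 were higher. Type IV collagen, the network of every basement membrane, stood at 810 and 1668 CPM for Col4a1, a log2 ratio of 1.04 (0.75 to 1.34), and at a ratio of 0.80 for Col4a2 (0.39 to 1.22). Col4a1 ranged from 0 to 16 UMIs with a median of 4 in wildtype members, and from 0 to 56 with a median of 8 in Eppk1-/- members. The ranges overlap, and the highest Eppk1-/- cell held 21.5% of the sum. Perlecan (Hspg2), the heparan sulphate proteoglycan of that layer, stood at 371 and 956 CPM, a log2 ratio of 1.36 (0.95 to 1.79), in 25 and 17 cells. Sparc, a collagen-binding matrix protein, stood at 1233 and 2137 CPM, a log2 ratio of 0.79 (0.55 to 1.04). The other higher members, named after their values were seen, were Nid1 at 1.36, Col15a1 at 1.08, Lamb1 at 0.99 and Lamc1 at 0.60. Of these, Nid1 and Lamc1 turned to -0.18 and -0.21 in the blood cells with at least 3 outside markers and low collagen, keratin and muscle RNA, Lamc1 to -0.16 with collagen under 0.5%, and Lamb1 to -0.52 after thinning. The lower member was the laminin receptor Itga6 at -0.51 (-0.94 to -0.09), which was 0.21 after thinning. The same 13 genes had a median of -0.04 in collagen-rich fibroblasts and 0.16 in keratin-rich cells. Fibroblasts make most of these proteins too, and fibroblast RNA was higher in Eppk1-/- members (above). With collagen RNA held under 0.5% of UMIs, Col4a1 stood at 1.06, Hspg2 at 1.31 and the list median at 0.59. With at least 8 UMIs and 0.2% of the selecting genes, which left 21 and 19 members, the list median was 0.24, Col4a1 0.57 and Hspg2 1.07.

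Among receptors and ligands that pattern vessels, Dll4 and Plxnd1 were higher in Eppk1-/- members. Dll4, the Notch ligand of capillary and tip cells, gave 45 UMIs in 15 wildtype members and 99 UMIs in 13 Eppk1-/- members, or 235 against 635 CPM. Its log2 ratio was 1.42 (0.91 to 1.98) and in blood endothelial cells 2.17, where 20 and 67 UMIs were counted. A wildtype member held from 0 to 7 UMIs with a median of 0, and an Eppk1-/- member from 0 to 26 with a median of 2.5, with overlap. After thinning, Dll4 was found in 11 of 29 wildtype (37.9%, 20.7 to 57.7%) and 8 of 16 Eppk1-/- members (50%, 24.7 to 75.3%), intervals that overlap, against 0 of 1454 wildtype fibroblasts, which allows up to 0.206%, and 5 of 2453 Eppk1-/- fibroblasts. Plexin D1 (Plxnd1), the semaphorin receptor of vessels, gave 21 UMIs in 11 wildtype and 58 UMIs in 14 Eppk1-/- cells, a log2 ratio of 1.74 (1.02 to 2.56). Of the measured vascular receptors, leaving out Flt1 and Flt4, which chose the cells, 4 of 16 were higher and 0 lower, with a median of 0.33. The VEGF receptor Kdr stood at 0.34 (-0.08 to 0.77) over all members, under the size, and at 0.81 (0.20 to 1.43) in blood endothelial cells, past it. The angiopoietin receptors Tie1 at 0.44 and Tek at -0.15 did not reach the size over all members. In the Notch list Dll4 was the only one of 6 measured genes past it. Of these 6, 4 lay above 0 and 2 below. Notch1 stood at 0.47 (-0.01 to 0.96), Jag1 at 0.30 and Hes1 at -0.47 (-1.02 to 0.05). The tip cell list had 4 measured genes, 2 of them higher, and the arterial list 5, of which Dll4 alone was higher.

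Transcription factors of endothelium went both ways, with 6 of 23 higher, 2 lower and a median of 0.13. Sox7, of the SoxF factors that act in vessel identity, gave 54 UMIs in 20 wildtype members and 131 in 16 Eppk1-/- members, a log2 ratio of 1.57 (1.11 to 2.06). The other SoxF genes stood at -0.17 for Sox17 and -0.18 for Sox18. After thinning, Sox7 was found in 10 of 29 wildtype (34.5%, 17.9 to 54.3%) and 13 of 16 Eppk1-/- members (81.3%, 54.4 to 96.0%), against 0.825% and 0.530% of fibroblasts. The intervals of the members all but meet, at 54.331% for the upper wildtype and 54.354% for the lower Eppk1-/- limit. They come from 1 random thinning, and the cells are not replicates of a genotype. The 2 deepest Eppk1-/- cells, both called lymphatic, held 24 and 43 of the 131 UMIs, and in blood endothelial cells the log2 ratio was 1.02. The lower factors were Id1, a target of BMP signalling, at -1.02 (-1.59 to -0.50), with 103 UMIs in 22 and 41 UMIs in 10 cells, and the flow-responsive factor Klf2 at -0.90 (-1.28 to -0.54). Klf2 stood at -0.35 in blood endothelial cells and Id1 at -0.70. In these cells 4 of 15 factors were higher and 2 lower. Irf1 stood at -0.14 (-0.44 to 0.16) over all members and at 1.02 (0.60 to 1.46) in blood cells. Klf4 stood at -0.38 (-0.65 to -0.12) over all members and at -0.73 (-1.06 to -0.41) in blood cells. Of its wildtype blood UMIs 46.0% were in 1 cell.

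**Figure D3:**
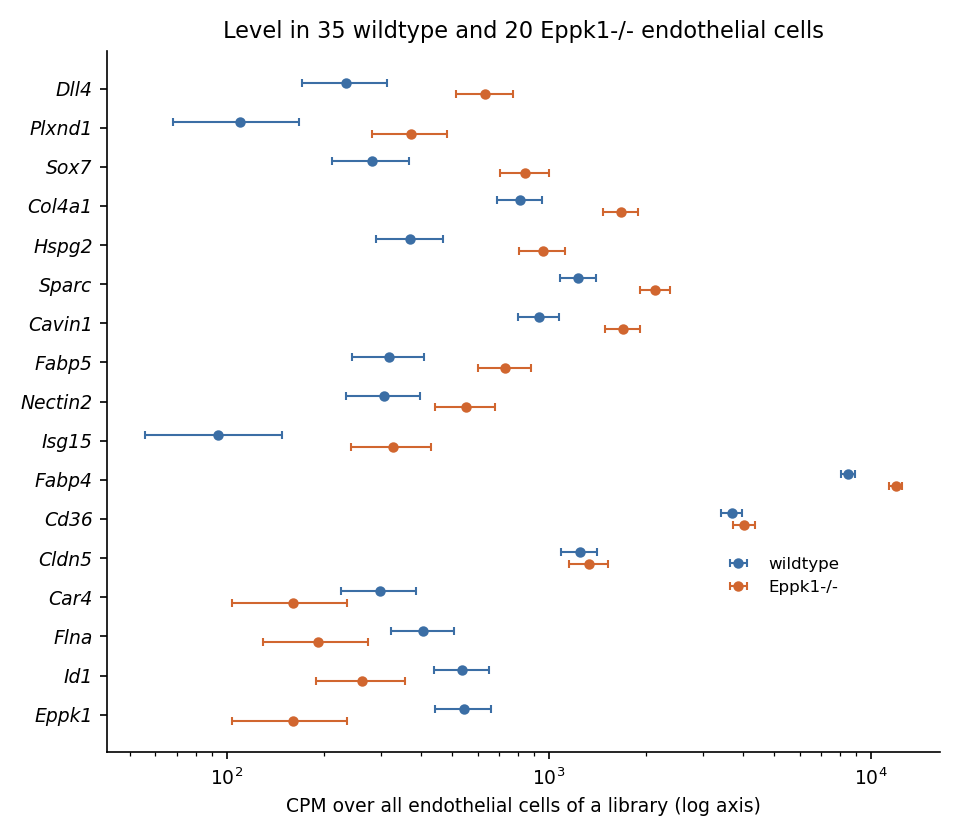
CPM of 17 genes, summed over the 35 wildtype and the 20 Eppk1-/- endothelial cells, on a log axis, with exact 95% Poisson intervals as bars. The intervals of the libraries are apart for genes such as Dll4, Sox7, Col4a1 and Hspg2 on the higher side and Flna, Id1 and Eppk1 on the lower side, and overlap for Cd36 and Cldn5.

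Of 13 capillary genes 4 were higher and 2 lower, with a median of 0.34. Fabp4 stood at 8477 and 11902 CPM, 0.49 (0.39 to 0.59), just under the size, and at -0.23 with the stricter limit of 8 UMIs and 0.2%. Cd36 stood at 0.13 (-0.03 to 0.29), Gpihbp1 at 0.31 (-0.11 to 0.73) and Cd300lg at 0.20 (-0.16 to 0.55). The glycerol channel Aqp7 was higher at 1.03 (0.52 to 1.56), in 15 and 14 cells, and Rgcc at 1.02 (0.58 to 1.47). The carbonic anhydrase Car4 was lower at -0.88 (-1.63 to -0.19), in 14 and 5 cells, and the protease inhibitor Timp4 at -0.58 (-1.11 to -0.07), which was -0.44 in blood cells and under the size there. In the list of caveolae and transport 5 of 20 were higher and 1 lower, with a median of 0.30. In blood endothelial cells 8 of 17 were higher and 1 lower, with a median of 0.43. Cavin1, the coat protein of caveolae, stood at 930.3 and 1694 CPM, a log2 ratio of 0.86 (0.58 to 1.15), in 30 and 19 cells, while caveolin 1 (Cav1) stood at 0.38 (0.15 to 0.62). Fabp5 was higher at 1.19 (0.74 to 1.67), the diaphragm protein Plvap at 0.88 (0.36 to 1.42), and the glucose transporter Slc2a1 lower at -0.90 (-1.91 to -0.02).

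Junction genes, without the selecting genes Pecam1 and Cdh5, had 4 of 16 higher and 1 lower, with a median of 0.25. Claudin 5 (Cldn5), which seals the paracellular cleft, stood at 0.10 (-0.18 to 0.37) over all members and 0.58 in blood cells. Nectin2, an adhesion molecule of adherens junctions, was higher at 0.84 (0.34 to 1.34). Among genes that recruit leukocytes, without Pecam1, 4 of 15 were higher and 1 lower, with a median of 0.19. Icam1, the ligand of leukocyte integrins, was higher at 0.88 (0.63 to 1.13) over all members, where 1 lymphatic cell held 50.4% of the Eppk1-/- UMIs, and stood at 0.43 in blood cells. Among 10 venous genes 2 were higher and 2 lower (median -0.26), and the leucine-rich glycoprotein Lrg1 stood at -1.30 (-1.82 to -0.82). Among 9 genes of haemostasis and tone 3 were higher and 2 lower (median 0.34). In blood cells 1 of 7 was higher and 2 lower (median 0.02). Thrombospondin 1 (Thbs1) stood at -1.27 (-1.82 to -0.76) over all members. Of 11 lymphatic genes without Prox1, Flt4 and Mmrn1, 1 was higher and 3 lower (median -0.26), and of 12 blood endothelial genes without Ptprb and Flt1, 3 were higher and 0 lower (median 0.23). Among 11 intermediate filament and actin linker genes vimentin (Vim), at 0.81, was the higher one and Flna the lower one.

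Interferon-response genes had 5 of 11 higher and 3 lower, with a median of 0.31 in endothelial cells, where the same 11 genes had a median of -0.66 in fibroblasts and -0.50 in keratin-rich cells. Isg15, a ubiquitin-like protein made under interferon, gave 18 UMIs in 9 wildtype and 51 UMIs in 12 Eppk1-/- members, 1.77 (0.998 to 2.66). It stood at -1.36 in fibroblasts and at 0.30 (0.13 to 0.46) in keratin-rich cells. After thinning, Isg15 was found in 3 of 29 and 4 of 16 members, so that its level per cell rests on few UMIs. The antiviral membrane protein Bst2 was higher at 0.62 (0.15 to 1.09) over all members and stood at 0.40 in blood cells, under the size, and the GTPase Iigp1 stood at 0.56 (-0.04 to 1.16). The lower genes were the GTPases Igtp at -1.05 (-2.05 to -0.19), Irgm1 at -0.96 and Gbp4 at -0.61. In blood cells 6 genes of the list were measured, of which 4 were higher and 0 lower, with a median of 0.62. Of 11 genes of antigen presentation 4 were higher, all of them MHC class II genes or Cd74. A single Eppk1-/- member, with 0 of the 9 endothelial markers, held 351 of 372 Cd74 UMIs (94.4%). The wildtype members held 197, more than the other Eppk1-/- members together, so that without this cell Cd74 was lower. Of the wildtype UMIs, 101 and 57 were in single cells with a droplet barcode shared between the libraries. The lower value therefore rests on few cells too. A single Eppk1-/- cell also held 93.8% of the UMIs of H2-Eb1 and 91.8% of those of H2-Aa. These calls of higher therefore rest on single cells. Whether the ratios differ between cell types was not tested.

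Genes that respond to glucocorticoids had 3 of 23 higher and 6 lower, with a median of 0.04, and -0.24 in blood cells. In the fibroblasts the 22 measured ones of these had -0.29 and in the keratin-rich cells -0.25. Tsc22d3, a glucocorticoid-induced leucine zipper protein, was lower in the members at -1.24 (-2.10 to -0.49), in 22 and 9 cells. Txnip, an arrestin that limits glucose uptake, stood at -0.60 (-0.79 to -0.41) over all members and at -0.24 (-0.47 to -0.01) in blood cells, under the size. On the higher side Nfkbia, the inhibitor of NF-kappaB, stood at 0.80 (0.64 to 0.95). The transcription factor Cebpb stood at 1.42 (1.16 to 1.69), with 48.8% of its Eppk1-/- UMIs in 1 cell, and at 0.23 in blood cells. Of the early genes that dissociation raises, all 26 were measured, 4 were higher and 8 lower, with a median of -0.05. The clock list had 5 measured genes with a median of 0.11, and cholesterol synthesis only 2 and the cell cycle only 2.

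**Figure D4:**
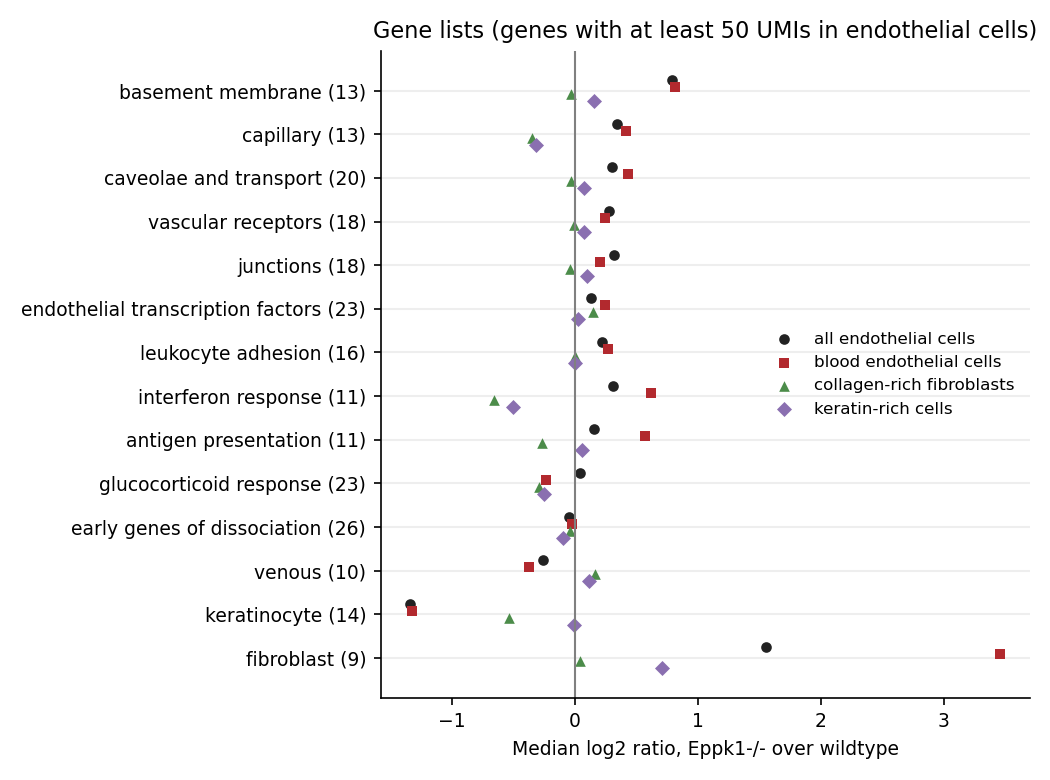
Median log2 ratio (Eppk1-/- over wildtype) of 14 gene lists, with the number of genes measured in endothelial cells in brackets, for all endothelial cells, blood endothelial cells, collagen-rich fibroblasts and keratin-rich cells. The basement membrane list lies at 0.79 and 0.81 in the endothelial groups and near 0 in fibroblasts, and the fibroblast and keratinocyte lists show the RNA of other cells within the members. Lists are plotted whole, including the genes that chose the cells.

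The genes of most extreme ratio included genes of other cell types. The 10 highest were Gfpt2, Il1b, Ptx3, Cd248, Igfbp6, Clec3b, Dpt, Krt77, Gdf15 and Csf3, and in each of them a single Eppk1-/- cell held between 40.9% and 98.7% of the UMIs. Cd248, Clec3b and Dpt are fibroblast genes, and Krt77 is a keratin. The 10 lowest were Mmrn1, Epgn, Ccn2, Slc6a14, Col17a1, Serpina3n, Cdsn, Cxcl14, Cfd and Cst6, in which a single wildtype cell held between 22.1% and 98.6%. Col17a1 and Cdsn are keratinocyte genes and Cfd is an adipocyte gene. Under all 15 alternative settings Dll4, Plxnd1, Sox7, Col4a1, Hspg2, Isg15, Nectin2 and Fabp5 stayed higher by at least 0.5, and Id1, Flna and Eppk1 lower by at least 0.5. Such stability was not particular to vessel genes. Gdf15 also stayed higher, from 0.92 to 3.58. The keratinocyte gene Col17a1 stayed lower, from -5.93 to -2.64, and the adipocyte gene Cfd from -3.29 to -1.79.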

How the data were processed

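The authors deposited 1 matrix of UMI counts per library, with probed genes by cells. The submitters' notes name mm10 and Cell Ranger, version 8.0.1. The counts were whole numbers and not normalized. Depth was 77638793 UMIs in 9179 wildtype cells and 65118304 in 8811 Eppk1-/- cells, and aligned reads were not analysed here. Cells outside 200 to 45000 UMIs, 100 to 7500 genes or above 10% mitochondrial UMIs were dropped, then 13 mitochondrial genes. Sums of UMIs over the members of a library were divided by their total and given as CPM. Ratios had 0.5 UMI added, with exact conditional intervals for ratios and exact Clopper-Pearson intervals for shares, at 95%. No test was made with 1 library per genotype. Members and gene lists were chosen with earlier results of these data known. Genes were measured at 50 UMIs or more over both libraries. Names were taken from the selecting genes, the plakins and the 20 genes highest over other cells. They also came from the 10 highest and 10 lowest ratios in at least 10% of members of a library. Of each list the 5 members with most UMIs and its extremes were candidates, and not all of these are given. Other genes, such as Plvap, Rgcc, Cp and those around Mmrn1, are to be read as chosen after their values were seen. Fibroblasts had at least 2% collagen UMIs and keratin-rich cells at least 1% keratin UMIs. Members were clustered with scanpy 1.11.5 (30 components, 15 neighbours, Leiden resolution 0.5), and doublets were scored with Scrublet but left in; its automatic calls were not used, since almost no wildtype cell was called, and the top 5% of scores were left out as an alternative. Python 3.11.15, scipy 1.17.1 and edgeR 4.0.16 (TMM factors only) were used. The computation was tested on simulated data. Some genes are not reported here.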

Additional observations from a re-analysis of the deposited data

How the results depend on the processing

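No paired analysis was possible because each genotype has 1 library and no replicate numbers. With 35 and 20 cells, single cells can decide a sum, and recovery by dissociation was not measured. The setting of blood cells with 3 outside markers and low collagen, keratin and muscle RNA, and that of 3 outside markers, were added after seeing the data. Lymphatic cells could not be called by cluster, since no cluster was mostly lymphatic. With 8 UMIs and 0.2% the shares were 0.237% in wildtype and 0.220% in Eppk1-/- skin. The Eppk1 ratio was -3.39 with collagen under 0.5%, -3.34 without keratin or muscle RNA and -3.62 without the Scrublet top 5%. Higher genes were 177 in blood cells, 101 in the strict blood cells, 64 after thinning, 812 at 20 UMIs, 64 at 200 UMIs, 3267 at 1 UMI and 96 at a log2 ratio of 1. Lower genes were 170 with 8 UMIs and 0.2%, 181 without keratin or muscle RNA, 53 in the strict blood cells, 42 after thinning, 1027 at 20 UMIs, 31 at 200 UMIs, 4109 at 1 UMI and 110 at a log2 ratio of 1. Genes over other cells were 37 at 200 UMIs. Clusters were 1 at resolution 0.3 and 4 at resolution 1. Some directions turned, and the cause was not tested. Several list medians above 0 fell below 0 in at least 1 setting. They reached -0.23 for caveolae and transport, -0.21 for capillary, -0.22 for leukocyte adhesion and -0.26 for haemostasis and tone genes. They reached -0.14 for vascular receptors, -0.11 for junctions, -0.14 for interferon response and -0.15 for blood endothelial genes. Medians of basement membrane, endothelial transcription factor, Notch and tip cell genes stayed above 0. With collagen under 0.5% the fibroblast list turned to -0.43, Igfbp6 to -1.34, Clec3b to -3.17, Dpt to -2.09, Krt77 to -0.012 and Lamc1 to -0.16. Krt77 was -0.32 without keratin or muscle RNA and -0.16 without the Scrublet top. In the strict blood cells Dpt was -1.41, Csf3 -0.38, Cst6 2.83, Nid1 -0.18 and Lamc1 -0.21. With 8 UMIs and 0.2% Cdsn was 0.88, Cst6 3.75 and Adgrl4 -0.14, and with 3 outside markers Cdsn was 0.999 and Cst6 3.42. After thinning Itga6 was 0.21 and Lamb1 -0.52, and as a mean over cells Tmem252 was 0.29.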
